A study of Rattus norvegicus with 24 samples.

Results

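Enpp6 and Adamts4 are a pair of genes that mark steps of oligodendrocyte (OL) maturation, and they were followed here through all 6 conditions of an RNA sequencing study of dolutegravir (DTG), an HIV integrase inhibitor. The members were the count rows with the gene identifiers ENSRNOG00000009660 (Enpp6) and ENSRNOG00000003538 (Adamts4), 2 of the 32883 genes listed in most files. Primary rat oligodendrocyte precursor cells (OPCs) were kept for 24 hours in proliferation medium without treatment, with DMSO vehicle at 0.04% or with 8 µM DTG. OLs came from OPCs that went through the same 24 hours and then 72 hours of differentiation, under the same treatment throughout. Each condition had 4 libraries. According to the study's methods, biological replicates were OPCs of separate litters. Library names carry the same date code for a replicate number in all 6 conditions, and a number is taken here to stand for 1 litter, with litters 2 and 3 sharing a date. The cells were grown as purified primary cultures. Each library held RNA of a whole culture, so fewer cells of a stage and less RNA per cell cannot be told apart.

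ENPP6 is a choline-specific glycerophosphodiesterase held on the outer face of the cell membrane, and its transcript marks OLs that have just begun to differentiate. ADAMTS4 is a secreted metalloproteinase, known as an aggrecanase, which cleaves proteoglycans of the lectican family in the extracellular matrix. In the central nervous system its transcript is found mainly in maturing and myelinating OLs. Differentiation of OPCs passes through the newly formed stage before the myelin genes reach their full level.

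The files of 22 libraries place Enpp6 on chromosome 16, from 48315914 to 48437242 on the minus strand, with 9 exon blocks that sum to 2170 bases. They place Adamts4 on chromosome 13, from 89622632 to 89634419 on the plus strand, with 9 exon blocks that sum to 5637 bases, of which the longest has 3144. The processing notes of the submitters name the build Rnor_6.0. No other gene of that annotation overlapped the exons of either gene. The upstream sequences of both genes are shown because the transcripts moved together across the libraries described below. They are the 250 bases before the RefSeq start on the build GRCr8, which is not the build of the counts, at chr16:52026729-52026978 on the minus strand for Enpp6 and chr13:86202761-86203010 on the plus strand for Adamts4. Capitals mark matches on either strand to ACAAAG or ACAATG (SOX factors), CAGATG or CAGCTG (E-box) and CTGGCAC or CTGGTAC (MYRF, the myelin regulatory factor), or TGATGNAAN (the composite ATF4 and CEBP element).
Enpp6: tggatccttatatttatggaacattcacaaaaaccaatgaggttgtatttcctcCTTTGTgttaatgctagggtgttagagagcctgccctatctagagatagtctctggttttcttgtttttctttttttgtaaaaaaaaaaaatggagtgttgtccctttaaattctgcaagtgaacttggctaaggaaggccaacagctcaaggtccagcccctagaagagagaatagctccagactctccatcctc
Adamts4: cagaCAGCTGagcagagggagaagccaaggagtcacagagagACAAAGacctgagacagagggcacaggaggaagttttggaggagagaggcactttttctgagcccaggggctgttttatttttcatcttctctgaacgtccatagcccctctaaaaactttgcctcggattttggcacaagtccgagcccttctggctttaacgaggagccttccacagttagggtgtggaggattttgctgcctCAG

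Both upstream sequences held 1 match to ACAAAG, which 18.8% of 33469 RefSeq windows of 300 bases (250 before to 50 after the start) also held. It began at position -196 in Enpp6, on the opposite strand, and at -208 in Adamts4. Adamts4 also held CAGCTG at -246, and its last 3 capitals begin a CAGATG at -3 that runs across the start. Both genes held CAGCTG shortly after the start, at 17 in Enpp6 and 18 in Adamts4, against 15.1% of windows with that word anywhere. A MYRF word followed in each. In Enpp6 it was CTGGCAC on the opposite strand at 22 (4.75% of windows), sharing 1 base with the E-box, and in Adamts4 it was CTGGTAC at 29 (2.16% of windows). These matches lie in 30 further bases each, chr16:52026699-52026728 and chr13:86203016-86203045. The stretch of Enpp6 follows directly on its upstream sequence. That of Adamts4 begins at 86203016, after a gap from the upstream end at 86203010. The bases in the gap, which complete the CAGATG at -3, are not shown.
Enpp6: agtctttgcaagggcaCAGCTGTGCCAGct
Adamts4: ctcaatccatccCAGCTGcagcaCTGGTAC

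Neither window held ACAATG (13.2% of windows) or TGATGNAAN (3.97%), and CAGATG was in 16.6% of windows. Such matches are descriptions of letters, and binding was not measured.

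Depth was alike among the libraries, with 13241279 to 18499994 counts on genes and 1.06% to 7.19% of counts on ERCC transcripts, synthetic RNAs mixed into normalized total RNA. The untreated OPC and untreated OL libraries of litter 3 were counted on another annotation of 30560 genes, so levels below rest on 22 libraries and untreated groups on 3. Of the stage markers with an identifier, Mbp, a major myelin protein gene, was at 220 ± 69.6 CPM in DMSO-treated OPCs and 8330 ± 3170 in DMSO-treated OLs (SD, n = 4 each). Pdgfra, the growth factor receptor of OPCs, was at 611 ± 201 and 184 ± 68.7, but its identifier came from a list of genes lower in OLs, so its direction does not check the labels. The identifier of Mbp came from the study's list of genes changed by DTG in these same OL libraries. Mbp was thus not chosen independently of the DMSO-treated OLs either. CPM are counts divided by the scaled library total, per 1e6 counts.

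In OPCs, Enpp6 was near the lower end of expressed genes. Its level in DMSO-treated OPCs was 1.75, 1.98, 3.01 and 0.923 CPM in litters 1 to 4, from 28, 29, 61 and 13 counts. In DTG-treated OPCs it was 1.17, 2.48, 3.25 and 0.78 CPM, from 23, 45, 59 and 14 counts. Untreated OPCs of litters 1, 2 and 4 had 2.23, 3.31 and 1.20 CPM. These 3 groups overlapped throughout, and litter 4 was the lowest in each. Counting error alone was wide at such counts, as 13 counts have an exact 95% Poisson interval of 6.92 to 22.2.

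In OLs, Enpp6 was between 23.5 and 122 CPM. DMSO-treated OLs had 91.2, 122, 108 and 48.4 CPM in litters 1 to 4. DTG-treated OLs had 34.7, 61.7, 55.3 and 23.5 CPM. Untreated OLs of litters 1, 2 and 4 had 81.1, 104 and 49.5 CPM. The DTG-treated libraries were the lowest of their litter in all 4 litters, while the groups overlapped because litter 4 was low under every treatment. No OL library overlapped any OPC library.

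Adamts4 was also low in OPCs and higher in OLs, with somewhat more counts. In DMSO-treated OPCs it was 4.19, 7.51, 8.54 and 3.55 CPM in litters 1 to 4, and in DTG-treated OPCs 3.71, 8.00, 7.23 and 4.18 CPM. Untreated OPCs had 4.17, 6.05 and 4.12 CPM in litters 1, 2 and 4. The OPC groups overlapped throughout, and litters 2 and 3 were above litters 1 and 4 wherever they were measured. In DMSO-treated OLs Adamts4 reached 105, 211, 150 and 70.8 CPM, and in untreated OLs 129, 206 and 70.4 CPM. DTG-treated OLs had 53.3, 89.3, 76.1 and 36.5 CPM. Again DTG was the lowest treatment in every litter, and the DTG range reached into the DMSO range through litter 4.

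**Figure D1:**
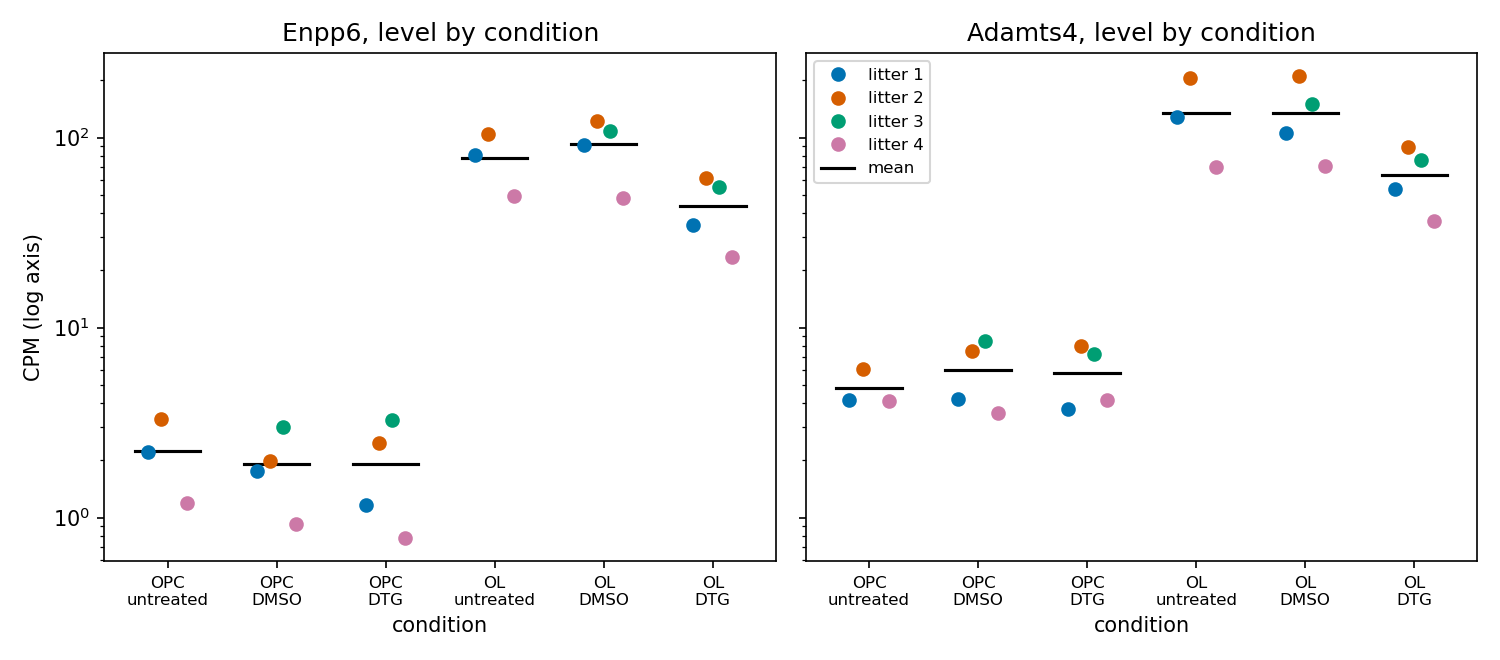
Levels of Enpp6 (left) and Adamts4 (right) in CPM on a log axis for the 6 conditions; points are libraries coloured by litter and black lines are group means. OL libraries lie far above OPC libraries, with DTG-treated OLs below DMSO-treated OLs in each litter and litter 4 lowest in all OL groups.

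Ordered by mean level, Enpp6 stood at 1.92 ± 0.86 CPM in DMSO-treated OPCs, 1.92 ± 1.15 in DTG-treated OPCs and 2.24 ± 1.06 in untreated OPCs (n = 4, 4 and 3). It then stood at 43.8 ± 17.8 CPM in DTG-treated OLs, 78.2 ± 27.4 in untreated OLs and 92.4 ± 31.9 in DMSO-treated OLs (SD, n = 4, 3 and 4). For Adamts4 the order was 4.78 ± 1.10 CPM in untreated OPCs, 5.78 ± 2.15 in DTG-treated OPCs and 5.95 ± 2.45 in DMSO-treated OPCs (n = 3, 4 and 4). It then stood at 63.8 ± 23.5 CPM in DTG-treated OLs, 134 ± 60.5 in DMSO-treated OLs and 135 ± 68.1 in untreated OLs (n = 4, 4 and 3). The step from the OPC groups to DTG-treated OLs was larger than the spread in both genes. Neighbours within the OPC groups, and untreated against DMSO-treated OLs, differed by less than their spread. Among the genes that passed the filter on low counts over the 22 libraries, ranked by CPM per kb of exon, the median library put Enpp6 at percentile 16 in DMSO-treated OPCs and percentile 82.9 in DMSO-treated OLs. Adamts4 was at percentiles 17.3 and 71.6. In DTG-treated OLs these positions were percentiles 69.8 and 59.2.

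The spread within groups followed the litters. In DMSO-treated OLs the highest library, litter 2, was 2.52 times the lowest, litter 4, for Enpp6 and 2.98 times for Adamts4. The same litters were highest and lowest in DTG-treated OLs (2.62 and 2.44 times) and in untreated OLs (2.10 and 2.93 times). Enpp6 was lowest in litter 4 in all 6 conditions, and Adamts4 in 5 of 6, the exception being DTG-treated OPCs with litter 1 lowest.

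The 2 libraries on the other annotation were compared only as counts over their own totals. Untreated OPCs of litter 3 had 2.14 CPM of Enpp6 and 8.15 of Adamts4, and untreated OLs of litter 3 had 93.2 and 139. On the same basis the untreated OLs of litters 1, 2 and 4 had 77.8, 93.6 and 48.3 CPM of Enpp6 and 124, 186 and 68.7 of Adamts4. The litter 3 values of OLs lay inside that range. The untreated OPCs of litters 1, 2 and 4 had 2.58, 3.58 and 1.26 CPM of Enpp6 and 4.83, 6.56 and 4.35 of Adamts4, so the litter 3 value of OPCs was inside the range for Enpp6 and above it for Adamts4. In that annotation Adamts4 has 3732 exonic bases and shares 175 of them with an antisense gene, and the library kit did not mark strand.

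The comparison of OLs with OPCs asks how far these markers rise over differentiation. In vehicle, Enpp6 rose 46.9-fold and Adamts4 22.4-fold. The log2 fold changes were 5.55 (SE 0.37, adjusted p = 3.7e-07) and 4.49 (SE 0.38, adjusted p = 2.21e-06) in edgeR's quasi-likelihood test. They were the 29th and 88th largest rises of 13023 genes tested, in a comparison in which 32.6% of genes were called, that is, had an adjusted p under 0.05 and a log2 fold change beyond 1 in either direction. Within litters, the log2 rise of Enpp6 was 5.70, 5.94, 5.17 and 5.71, and that of Adamts4 was 4.65, 4.81, 4.14 and 4.32. Litter 3 had the smallest rise in both genes.

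Under DTG both genes also rose, Enpp6 by 4.50 (SE 0.44, adjusted p = 1.12e-05) and Adamts4 by 3.46 (SE 0.34, adjusted p = 1.24e-05) on the log2 scale, where edgeR called 39.3% of 13171 genes. These are 22.6-fold and 11-fold rises, the 87th and 197th largest. Within litters the rise of Enpp6 was 4.89, 4.63, 4.09 and 4.92, and that of Adamts4 was 3.85, 3.48, 3.40 and 3.13. Each of these was smaller than the rise under vehicle in the same litter. In untreated cultures the rises were 5.10 (SE 0.38, adjusted p = 9.6e-06) for Enpp6 and 4.81 (SE 0.39, adjusted p = 1.45e-05) for Adamts4 by edgeR, over 3 libraries a group, with 23% of genes called. Both genes were called in all 3 comparisons with and without the litter as a block.

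The comparison of DTG-treated with DMSO-treated OLs asks what multistage exposure to the drug did to the transcripts. DTG-treated OLs held 47.4% of the mean Enpp6 level and 47.5% of the mean Adamts4 level of DMSO-treated OLs. The log2 fold changes were -1.09 for Enpp6 (95% interval -1.74 to -0.43) and -1.08 for Adamts4 (-1.75 to -0.41). Without a block the adjusted p-values were 0.123 and 0.136 in edgeR's quasi-likelihood test, so neither gene was among the 0.582% of 12710 genes called. With the litter as a block the sizes were nearly alike and both genes fell past the thresholds. The log2 fold changes were then -1.10 for Enpp6 (SE 0.15, adjusted p = 1.02e-05) and -1.05 for Adamts4 (SE 0.14, adjusted p = 1.01e-05) in edgeR, where 173 genes were called against 74 without the block. DESeq2's Wald test without a block called both as well, at adjusted p-values of 0.023 and 0.028. Both genes are in the study's own list for this comparison, made from the same libraries, so the calls are not independent evidence of the direction.

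Within litters 1 to 4, the Enpp6 level under DTG was 38%, 50.7%, 51% and 48.6% of that under DMSO. For Adamts4 it was 50.7%, 42.3%, 50.6% and 51.6%. Of these 8 values, 6 lay between 48.6% and 51.6%, and the others were Enpp6 in litter 1 and Adamts4 in litter 2. The log2 differences ranged from -1.39 to -0.97 for Enpp6 and from -1.24 to -0.96 for Adamts4. Levels differed by up to 2.98 times between litters of an OL group, while the level under DTG ranged from 38% to 51.6% of that under DMSO.

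**Figure D2:**
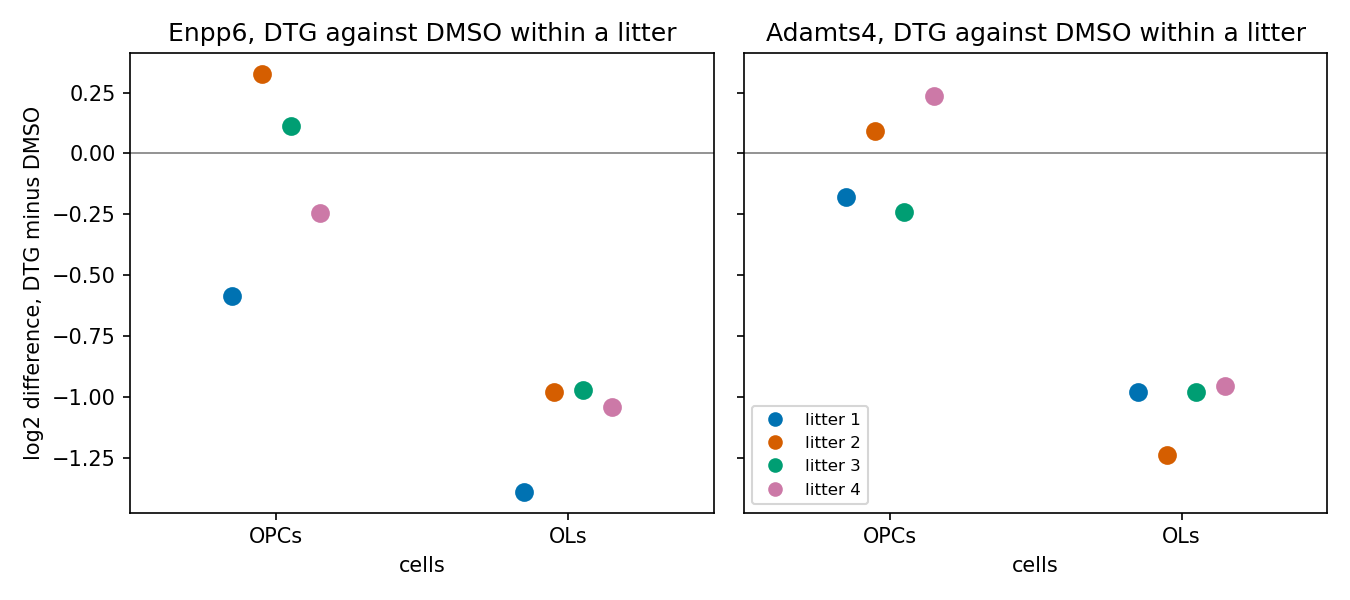
Log2 difference between the DTG-treated and DMSO-treated library of each litter for Enpp6 (left) and Adamts4 (right), in OPCs and OLs; points are coloured by litter and the line marks no difference. In OLs all 8 points lie between -1.39 and -0.96, and in OPCs they lie on both sides of 0.

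The size of the fall lay close to the threshold of 1 on the log2 scale. With the block, leaving out litter 1 gave -0.98 for Enpp6 and leaving out litter 2 gave -0.98 for Adamts4, which ended the call on size, at adjusted p-values of 8.27e-05 and 0.00012 in edgeR. Scaling to ERCC counts gave -0.62 for Enpp6 and -0.60 for Adamts4, both with an adjusted p of 0.55 in edgeR. That scaling moved the median of all genes to 0.59, and relative to it the genes stood at -1.21 and -1.19. The ERCC share was 2.19% to 7.19% in DMSO-treated OLs and 1.89% to 3.72% in DTG-treated OLs. Counts of mitochondrial genes also moved with DTG, from 2.04% to 2.55% of counts in DMSO-treated OLs and from 3.96% to 5.7% in DTG-treated OLs. Without mitochondrial genes the log2 fold changes were -1.09 and -1.08.

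**Figure D3:**
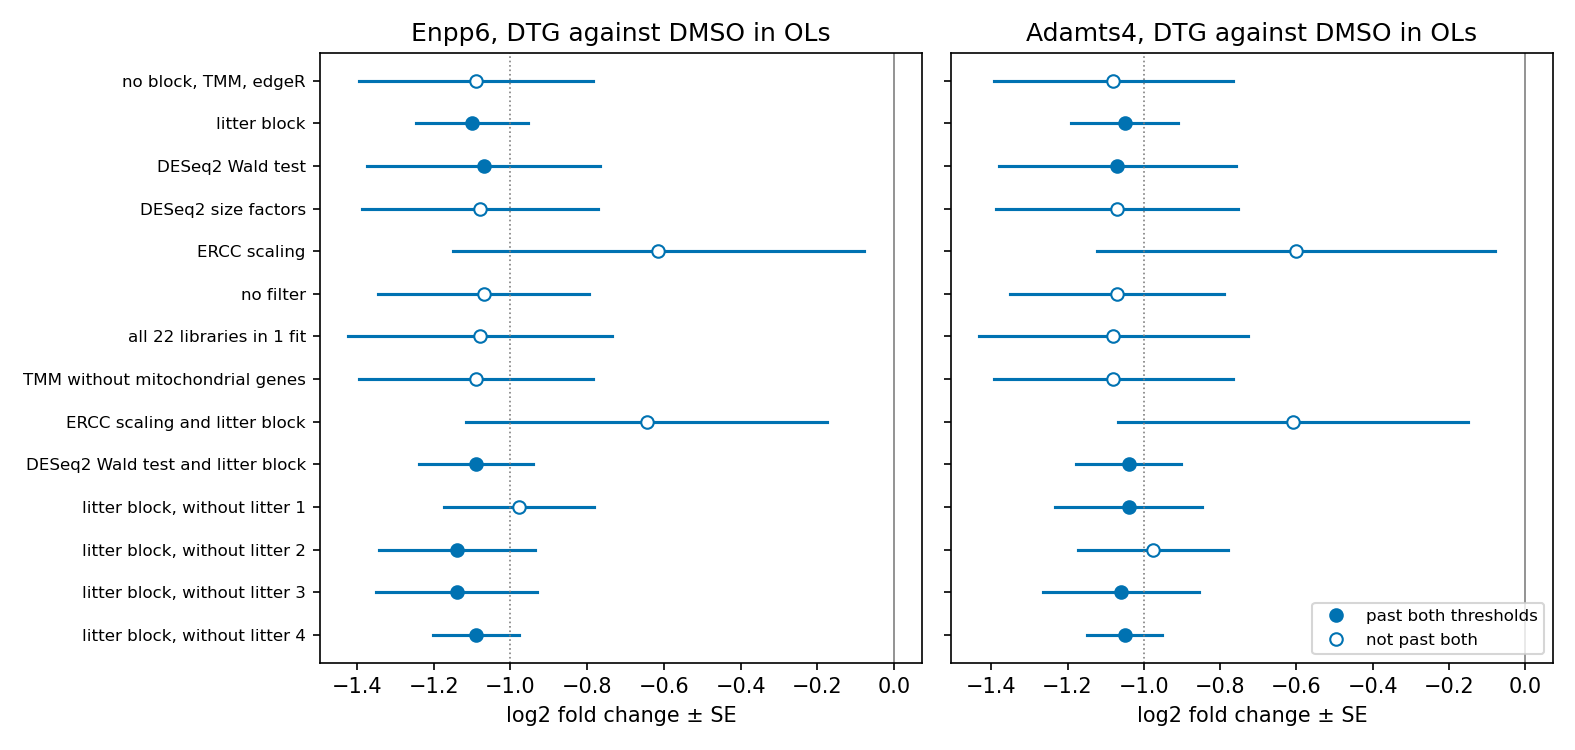
Log2 fold change ± SE of Enpp6 (left) and Adamts4 (right) of DTG against DMSO in OLs under each setting of the test; filled points passed both thresholds, open points did not, and the dotted line marks the size threshold of -1. Scaling to ERCC counts, with or without the litter block, gave the values nearest to 0, and the other settings with the block lie between -1.14 and -0.98.

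Against untreated OLs, DTG-treated OLs held 56% of the mean Enpp6 level and 47.2% of the mean Adamts4 level. The log2 fold changes were -0.84 (SE 0.32, adjusted p = 0.327) and -1.09 (SE 0.35, adjusted p = 0.254) in edgeR, over 4 and 3 libraries, in a comparison with 0.318% of genes called. With the litter as a block both genes were called, at -1.02 for Enpp6 (SE 0.11, adjusted p = 0.00108) and -1.16 for Adamts4 (SE 0.095, adjusted p = 0.000287) in edgeR. That fit called 165 of 12886 genes, against 41 without the block. DESeq2's Wald test without a block called neither, at -0.83 for Enpp6 (adjusted p = 0.201) and -1.08 for Adamts4 (adjusted p = 0.0793). Within litters 1, 2 and 4 the Enpp6 level was 42.8%, 59.3% and 47.5% of the untreated level, and the Adamts4 level was 41.3%, 43.3% and 51.9%. The DTG-treated OLs are the same libraries as in the comparison with DMSO.

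DMSO itself was compared with no treatment at each stage. In OLs the log2 fold changes were 0.21 for Enpp6 (95% interval -0.44 to 0.85) and -0.05 for Adamts4 (-0.84 to 0.74). In OPCs they were -0.16 for Enpp6 (-1.19 to 0.86) and 0.36 for Adamts4 (-0.48 to 1.20). That OPC fit holds litter 3 under DMSO only, where Enpp6 was at its highest DMSO-treated level, 3.01 CPM. With the litter as a block the OPC values were -0.51 for Enpp6 (-1.13 to 0.10) and 0.08 for Adamts4 (-0.35 to 0.51). Within litters 1, 2 and 4 of OPCs, Enpp6 under DMSO was 78.7%, 59.8% and 77.1% of the untreated level. Adamts4 was at 100%, 124% and 86.1%. Neither gene was called, with edgeR calling 0% of genes in both comparisons, 0 of 12893 in OLs and 0 of 13244 in OPCs (1440 and 94 at an unadjusted p under 0.05, and 0 in both by DESeq2). With the litter as a block 13 and 4 genes were called, neither of the pair among them.

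In OPCs after 24 hours, the comparison of DTG with DMSO gave log2 fold changes of -0.03 for Enpp6 (95% interval -1.09 to 1.03) and -0.05 for Adamts4 (-0.86 to 0.76). With the litter as a block the intervals were -0.60 to 0.57 and -0.46 to 0.39. Here edgeR called 0% of genes, 0 of 13270, with 69 at an unadjusted p under 0.05 and 0 called by DESeq2. Within litters the Enpp6 level under DTG was 66.7%, 125%, 108% and 84.5% of that under DMSO, and the Adamts4 level was 88.5%, 107%, 84.6% and 118%. Each gene was higher in 2 litters and lower in 2. At these low counts, changes of Enpp6 inside its interval were not detectable.

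The difference between the OL and the OPC response to DTG was itself tested over 16 libraries. It was -1.02 for Enpp6 (95% interval -2.32 to 0.28) and -0.998 for Adamts4 (-2.10 to 0.10), with an adjusted p of 1 for each in edgeR, where 0% of 13734 genes were called. Of these genes 368 had an unadjusted p under 0.05, and DESeq2 called 10, neither of the pair among them. With the litter as a block the differences were -1.04 (-1.67 to -0.40) and -0.99 (-1.47 to -0.51). Their unadjusted p-values in edgeR were 0.00338 and 0.000563, and the adjusted p-values were 0.768 and 0.508. Adamts4 had the 13th smallest p of all genes in that fit and Enpp6 the 60th. A difference between stages was thus not called.

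**Figure D4:**
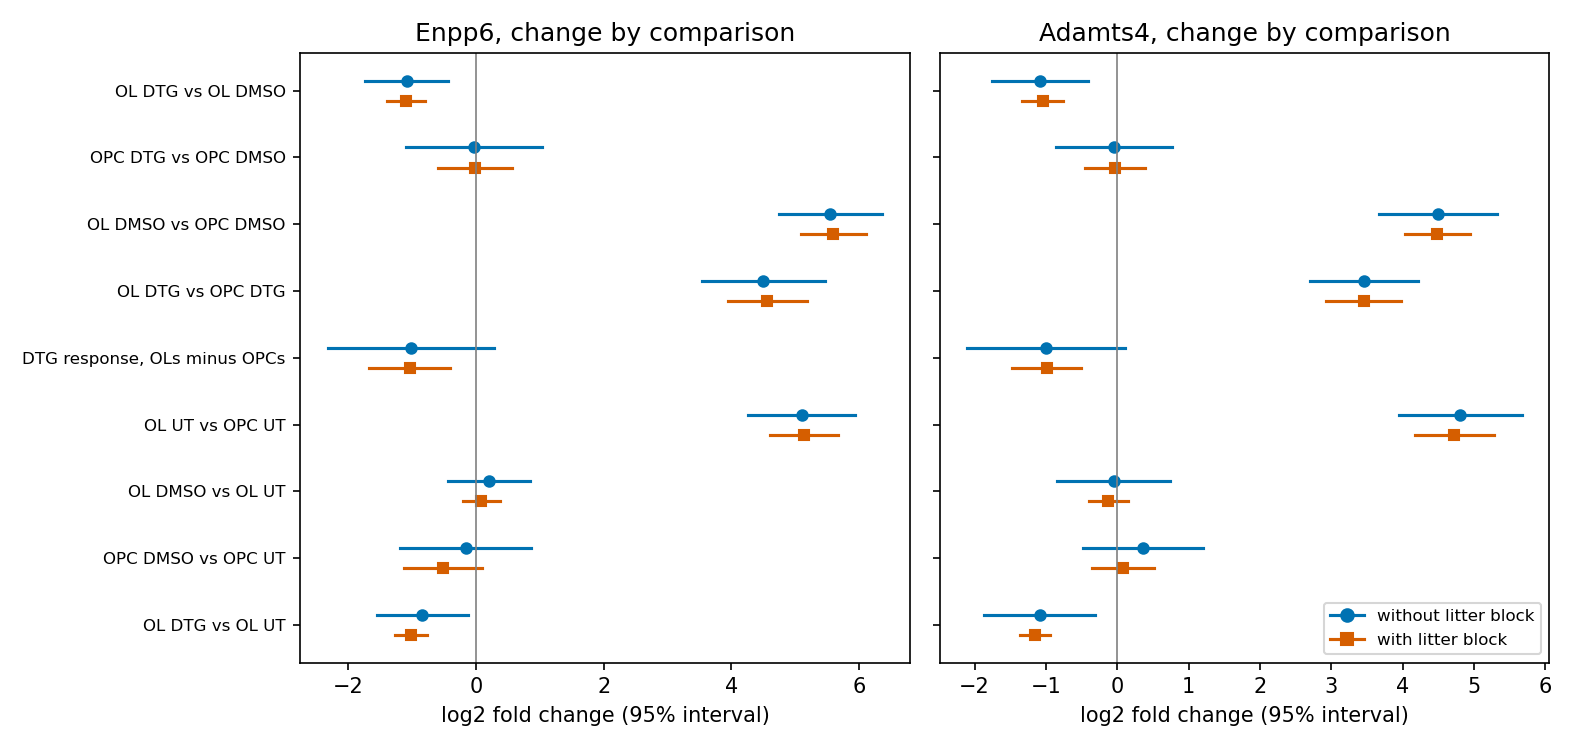
Log2 fold changes with 95% intervals of Enpp6 (left) and Adamts4 (right) in 9 comparisons, without the litter block (blue circles) and with it (orange squares). The differentiation comparisons lie between 3.45 and 5.60, the DTG comparisons in OLs lie near -1, and those in OPCs and of DMSO against no treatment have intervals across 0.

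The proportion of Adamts4 to Enpp6 within a library needs no scaling between libraries. Per kb of exon, Adamts4 was at 0.445, 0.667, 0.534 and 0.564 times the Enpp6 level in DMSO-treated OLs of litters 1 to 4. In DTG-treated OLs it was at 0.592, 0.557, 0.53 and 0.598 times. In DMSO-treated OPCs it was at 0.921, 1.46, 1.09 and 1.48 times, and in DTG-treated OPCs at 1.22, 1.24, 0.855 and 2.06 times. By these exon lengths Enpp6 was the higher of the pair in every OL library, and Adamts4 in 6 of these 8 OPC libraries. That order depends on the lengths used, as Adamts4 had more counts than Enpp6 in each of the 22 libraries. On the other annotation, with 3732 bases for Adamts4, untreated OLs of litter 3 had 37.2 CPM per kb of Adamts4 and 39.2 of Enpp6. The untreated libraries had 0.612, 0.763 and 0.548 times in OLs and 0.722, 0.705 and 1.33 times in OPCs of litters 1, 2 and 4. OL and OPC libraries overlapped in the untreated group.

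Over differentiation the log2 proportion fell by 1.15 under DMSO and by 1.17 under DTG, in all 4 litters of each. Two-sided exact permutation tests gave p = 0.0286 for each, the smallest value that 4 against 4 libraries allow, and 0.0572 after adjustment over the 4 comparisons run. Untreated differentiation was not among these tests. There the log2 proportion was 0.91, 0.87 and 1.78 in OPCs of litters 1, 2 and 4. In untreated OLs it was 0.67, 0.99 and 0.51, so it was lower than in OPCs in litters 1 and 4 but higher in litter 2. DTG-treated and DMSO-treated OLs differed by 0.06 (p = 0.743, adjusted 0.829, exact permutation test), and the within-litter differences ran from -0.26 to 0.41. In OPCs the difference was 0.07 (p = 0.829, adjusted 0.829, exact permutation test), from -0.35 to 0.48 within litters. No difference in the proportion with DTG was detectable within these ranges.

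**Figure D5:**
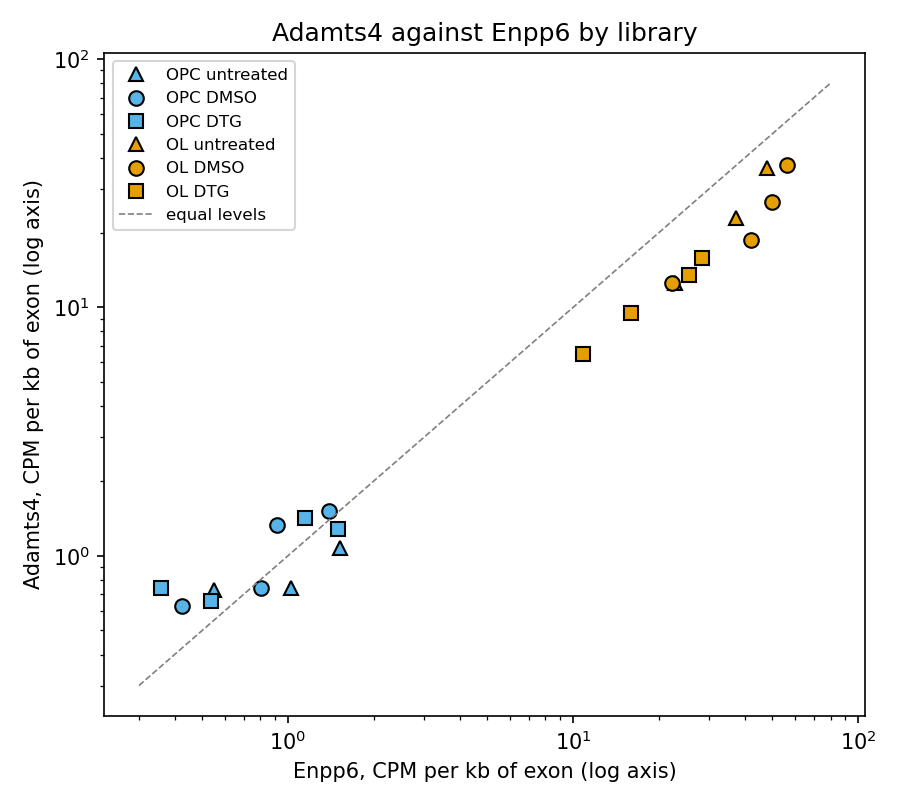
Adamts4 against Enpp6 in CPM per kb of exon on log axes, 1 point per library in 22 libraries; blue points are OPCs, orange points are OLs, shapes give the treatment and the dashed line marks equal levels. OL points form a narrow band below the line, with DTG-treated libraries toward its lower end, and OPC points scatter around the line. Where the points lie relative to the line depends on the exon lengths used.

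Across the 11 OL libraries on the common annotation, log2 CPM of the pair had a Pearson r of 0.968 and a Spearman rho of 0.973, and r was 0.957 after group means were removed. Across the 11 OPC libraries r was 0.778 and rho 0.7, and r was 0.85 after group means were removed. These libraries share 4 litters and the treatments, so r is given as a description. Among 12709 other genes, 3 were more like Enpp6 in OLs than Adamts4 was, and 3 were more like Adamts4 than Enpp6 was. For Enpp6 these were Mbp (r = 0.991), Cnksr3 (0.989), a scaffold protein gene, and ENSRNOG00000021023 (0.97), with S1pr5, a sphingosine 1-phosphate receptor gene of OLs, next after Adamts4 (0.961). For Adamts4 they were Cnksr3 (0.975), ENSRNOG00000021023 (0.973) and Mbp (0.971), with ENSRNOG00000011475 (0.961) next after Enpp6. The 2 identifiers have no symbol in the tables used here. The median r of all genes was -0.000433 for Enpp6 and 0.00824 for Adamts4.

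Mbp and Mog, genes of myelin proteins, had log2 fold changes of -1.40 and -1.01 with DTG against DMSO in OLs, with adjusted p-values of 0.0865 and 0.0116 in edgeR, so Mog was called and Mbp was not. With the litter as a block this turned around in edgeR, as Mbp was called (adjusted p = 1.09e-06) and Mog missed the size threshold (adjusted p = 0.00014). The identifiers of both came from the study's list of genes changed by DTG in these same libraries. Their fall with DTG was thus set by how they were named, and nothing is read from it about the pair. Mog was less like the pair across OL libraries, with r = 0.82 to Enpp6 and 0.809 to Adamts4. Among the OPC markers with an identifier, r to Enpp6 was -0.07 for Pdgfra and -0.46 for Cspg4, the NG2 proteoglycan gene. Mki67, a gene of cycling cells, had r = 0.822 to Enpp6 and 0.796 to Adamts4 in OLs. Its level there was low, 6.55 ± 1.55 CPM under DMSO and 5.16 ± 1.42 under DTG (SD, n = 4), against 115 ± 61.6 in DMSO-treated OPCs. The 4 cycling genes had a median log2 fold change of -0.36 under DTG in OLs and none was called, where 0.582% of all genes were. The part of cycling cells in the levels of the pair was not tested.

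Other genes of the pathways of the pair could be followed only where the study's tables pair a symbol with an identifier, which was so for 25 of 136 listed symbols. The table of differentiation genes used for this holds, as used here, only genes lower in OLs, so the direction of these genes over differentiation was set by how they were named. Of 13 such genes of the ENPP family, choline metabolism, the ADAMTS family and the regulators of ADAMTS4, all 13 were lower in DMSO-treated OLs than OPCs, and nothing is read from that count. Of the 10 with enough counts for the test of DTG against DMSO in OLs, 0 were called with or without the block (0.582% of all genes without it). Their median log2 fold change was 0.25 against 0.01 for all genes, and nothing is read from this either, since the DMSO-treated OLs that served to choose these genes are the reference here. The same holds for the OPC, neuronal, vascular and cycling genes with an identifier. Adamts14, a procollagen peptidase gene, had the largest value of the 10, at 0.66 (SE 0.22, adjusted p = 0.191 in edgeR), with 7.30 ± 1.51 CPM under DMSO and 11.6 ± 2.40 under DTG. Smpd3, the neutral sphingomyelinase gene whose product releases phosphocholine, was at 0.42 (SE 0.16, adjusted p = 0.29 in edgeR), with 94.6 ± 14.6 and 126 ± 24.5 CPM (SD, n = 4 each). Gpcpd1, a glycerophosphocholine phosphodiesterase gene, was at 7.25 ± 1.67 and 7.41 ± 2.16 CPM. Timp1, an inhibitor of metalloproteinases, was at 12 ± 2.25 and 12.7 ± 3.12 CPM, and Enpp1, an ENPP relative, at 0.76 ± 0.34 and 0.96 ± 0.25 CPM. In OPCs 0 of the 13 genes were called with DTG, where 0% of all genes were called, so nothing is read from that count.

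Of other cell types, the neuronal genes Snap25, Stmn2 and Map2 had log2 fold changes of 0.38, -0.50 and 0.09 with DTG against DMSO in OLs. None was called, where 0.582% of all genes were. Snap25 was at 0.73 ± 0.37 CPM in DMSO-treated OLs and Map2 at 84.1 ± 12.7. Rgs5, a gene of vascular mural cells, was between 0.073 and 0.147 CPM in DMSO-treated OLs and between 0 and 0.451 in DTG-treated OLs. The astrocyte, microglia, lectican and newly formed OL lists had no member with an identifier and were not analysed here.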

How the data were processed

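RNA of 24 cultures was sequenced after poly(A) selection with a kit that does not mark strand. The authors trimmed reads, aligned them with STAR 2.5.2b and counted unique reads within exons with featureCounts (Subread 1.5.2). The authors deposited raw counts per gene and library, without normalization or pooling, with 92 ERCC transcripts. The submitters' processing notes name Rnor_6.0. Of the files, 22 share 1 annotation of 32883 genes and 2 (untreated litter 3) use another. These share 21651 identifiers, 20.9% with equal exonic length, so comparisons with untreated cells left out litter 3 of the untreated group.

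Each pair of groups was compared in R 4.3.3 on its own libraries. The main test used edgeR 4.0.16 (TMM, filterByExpr, quasi-likelihood F test without legacy settings, Benjamini-Hochberg adjustment over all genes tested). A call needed an adjusted p under 0.05 and a log2 fold change beyond 1 either way. Levels are CPM with TMM over 22 libraries, and log2 CPM used a prior count of 2. Proportions within libraries were compared by two-sided exact permutation tests. Correlations ranked the 5 genes most like each member over 11 OL libraries. Symbols came from the study's tables, which pair 2107 identifiers. The tables also hold the authors' own fold changes and p-values, which were not used. Promoter sequences are from RefSeq (GRCr8), matched by symbol for both genes. The members, lists, motifs and tests were chosen with earlier results of these data known. The tests without a block were run on simulated counts that held no litter effect. That check does not cover the fits with the litter as a block. Intervals of counts (95%) cover counting error only.

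The study's methods make separate litters the replicates, and the date code in the library names is shared by equal replicate numbers in all conditions. Equal numbers were therefore treated as 1 litter, which no source states outright. Deviations from group means of same-numbered DMSO-treated and DTG-treated libraries correlated across genes at 0.361, 0.364, 0.304 and 0.0328 in OLs and 0.641, -0.0703, 0.516 and 0.789 in OPCs. Between stages these correlations were lower, from 0.033 to 0.439 under DMSO, -0.288 to 0.299 under DTG and 0.0209 to 0.121 untreated. Alternatives were a replicate block, DESeq2 1.42.0 (Wald test, and its size factors), ERCC scaling, no filter on low counts, all libraries in 1 fit, TMM without mitochondrial genes, all untreated libraries on shared identifiers, and each library left out. The named genes are both members, listed pathway and marker genes with an identifier, and the 5 nearest genes.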

Additional observations from a re-analysis of the deposited data

How the results depend on the processing

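Differentiation: both genes kept their rise and call under every alternative run in the DMSO, DTG and untreated comparisons. With libraries left out in turn the log2 rise of Enpp6 ran from 5.34 to 5.87 under DMSO, 4.25 to 4.88 under DTG and 4.81 to 5.47 untreated, and that of Adamts4 from 4.21 to 4.72, 3.26 to 3.66 and 4.4 to 5.12. ERCC scaling lowered it to between 2.07 and 4.43, with medians of all genes at -1.52, -1.36 and -0.60.

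DTG against DMSO in OLs: the direction held under all alternatives. Both genes passed the thresholds with the replicate block (-1.10 for Enpp6, -1.05 for Adamts4), with DESeq2 (-1.07 and -1.07) and with DESeq2 and the replicate block together (-1.09 and -1.04). The last, ERCC scaling with the replicate block (-0.65 and -0.61, not called) and the block without 1 litter were chosen after seeing the data. With the block and a litter left out, Enpp6 ran from -1.14 to -0.98 and Adamts4 from -1.06 to -0.98. Without the block, leaving out each library gave -1.29 to -0.88 for Enpp6 (adjusted p from 0.0727 to 0.357 in edgeR) and -1.28 to -0.78 for Adamts4 (0.0917 to 0.413), none called. Against untreated OLs both were called with the replicate block (-1.02 and -1.16), and leaving out each library gave -1.09 to -0.59 and -1.40 to -0.65, none called. The block changed no other call of the pair.

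Some differences that were near 0 without the block changed sign. For DTG in OPCs, Enpp6 was at 0.000351 with DESeq2 and 0.402 with ERCC scaling, and Adamts4 at 0.328 with ERCC scaling, where the median of all genes was 0.375. Leaving out each library gave -0.41 to 0.30 for Enpp6 and -0.24 to 0.19 for Adamts4. For DMSO against untreated OLs, Enpp6 was at -0.32 with ERCC scaling (median of all genes -0.66), and the ranges without each library were -0.0414 to 0.486 for Enpp6 and -0.36 to 0.41 for Adamts4. In OPCs these ranges were -0.52 to 0.16 and 0.09 to 0.52, and the replicate block gave -0.51 for Enpp6 and 0.08 for Adamts4. The difference between stages ran from -1.35 to -0.65 for Enpp6 and from -1.26 to -0.75 for Adamts4. The cause of these changes was not tested.

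The log2 proportion of Adamts4 to Enpp6 without each library ran from -1.28 to -1.05 over differentiation under DMSO, from -1.36 to -0.94 under DTG, from -0.04 to 0.15 for DTG in OLs and from -0.16 to 0.27 in OPCs.

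Counts of genes called moved by over 1.5 times in some settings. For DTG against DMSO in OLs the 74 became 173 with the block, 127 with DESeq2, 142 with both and 19 with ERCC scaling (19 higher and 0 lower, against 47 and 27). Leaving out each library gave 28 to 94, and the block without a litter 149 to 233. For DTG against untreated OLs the 41 became 165 with the block, 118 with DESeq2, 9 with ERCC scaling, 65 without a filter, and 7 to 37 with a library left out. Under ERCC scaling differentiation gave 6979 in place of 4245 genes under DMSO (278 higher against 1831) and 8530 in place of 5170 under DTG (491 higher against 2163). Untreated differentiation gave 461 higher and 1795 lower under ERCC scaling against 1461 and 1555. The 0 calls became 13 and 4 with the block for DMSO against untreated OLs and OPCs, and 10 with DESeq2 for the difference between stages. Depth limits Enpp6 most, with 13 to 61 counts in OPC libraries.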
